A study of Mus musculus with 12 samples.

Results

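The genes examined here encode the subunits of the proteasome, the particle that degrades ubiquitin-tagged proteins. They were taken as every gene that each of the 3 time point tables listed with status OK, the mark for loci that could be compared, and whose symbol is Psma, Psmb, Psmc or Psmd followed by a number. This rule gave 36 of the 14164 named genes with status OK at all 3 time points. Of these, 17 (Psma and Psmb) belong to the core particle and 19 (Psmc and Psmd) are named for the regulatory particle. All 36 passed a filter of a mean of 1 FPKM at each time point.

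RNA came from the prefrontal cortex of adult male C57BL/6J mice, whose age was given as 10 weeks for every group. The mice received saline or cocaine at 20 mg/kg by intraperitoneal injection daily for 14 days, and tissue was taken at 2 h, 24 h or 7 d from the final injection. The 6 groups (saline and cocaine at each of these times) gave 12 libraries, 2 per group, each made from the pooled tissue of 5 mice. The excised frontal tissue held frontal association, prelimbic and orbital cortex, so the values are averages over all of its cell types. In such bulk tissue, fewer cells of a type and less RNA per cell cannot be told apart.

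The values are FPKM, sequenced fragments scaled to the length of the transcript and to the number of fragments mapped. A group has 1 value per gene, pooled over its 2 libraries, so the spread between libraries and the depth behind a value are unknown here, and no difference below was tested. Ratios are log2 of cocaine over saline after 0.1 FPKM was added to both. A gene is called lower or higher when the change reached 1.2-fold, which is 0.263 on the log2 scale. The 3 time points were normalized separately, which bears on every level that is set beside one of another time point.

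The proteasome is built from a barrel and a cap. The barrel, or core particle, stacks outer rings of alpha subunits, which gate the entrance, on inner rings of beta subunits, some of which carry the protease sites. The cap, or regulatory particle, has a base with a ring of ATPases that unfold substrates and a lid that removes ubiquitin. In neurons, protein turnover by this particle is known to take part in the remodelling of synapses. When proteasome activity falls short, the transcription factor Nrf1 (gene Nfe2l1) is known to raise the subunit genes together through antioxidant response elements in their promoters, and NF-Y, a factor that binds CCAAT boxes, also acts on many of them.

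Promoter sequence from RefSeq (GRCm38.p6) was matched for 30 of the 36 genes. The 250 bases before the start site were searched on both strands for TGACNNNGC, the core letters of the antioxidant response element, and for CCAAT, and no subunit promoter held both. Shown are the 200 bases before the start site of the core genes that were lower by at least 1.2-fold at 7 d, held a match there, and had no other annotated gene over the stretch. Each is written 5′ to 3′ on the strand of its gene, and capitals mark the match, which reads ATTGG where CCAAT lies on the other strand. The stretches lie at chr7:114276117-114276316 on the minus strand for Psma1, chr13:14613042-14613241 on the plus strand for Psma2, chr12:55384022-55384221 on the plus strand for Psma6, chr14:54617996-54618195 on the minus strand for Psmb5, and chr17:34187331-34187530 on the minus strand for Psmb9.
Psma1: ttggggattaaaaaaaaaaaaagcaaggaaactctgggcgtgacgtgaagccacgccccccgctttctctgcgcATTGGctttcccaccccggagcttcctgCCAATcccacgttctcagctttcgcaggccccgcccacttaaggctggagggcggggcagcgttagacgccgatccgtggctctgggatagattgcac
Psma2: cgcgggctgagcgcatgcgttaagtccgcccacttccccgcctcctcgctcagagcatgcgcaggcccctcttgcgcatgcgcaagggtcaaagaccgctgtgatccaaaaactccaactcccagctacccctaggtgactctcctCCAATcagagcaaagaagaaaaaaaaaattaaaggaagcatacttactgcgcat
Psma6: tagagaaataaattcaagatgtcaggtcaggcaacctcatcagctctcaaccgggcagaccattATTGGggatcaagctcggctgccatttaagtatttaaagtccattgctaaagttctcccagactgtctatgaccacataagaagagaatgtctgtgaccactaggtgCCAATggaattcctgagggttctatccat
Psmb5: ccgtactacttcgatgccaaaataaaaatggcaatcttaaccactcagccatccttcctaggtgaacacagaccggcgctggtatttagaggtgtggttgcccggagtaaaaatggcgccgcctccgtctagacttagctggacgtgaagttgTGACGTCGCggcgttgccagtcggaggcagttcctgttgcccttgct
Psmb9: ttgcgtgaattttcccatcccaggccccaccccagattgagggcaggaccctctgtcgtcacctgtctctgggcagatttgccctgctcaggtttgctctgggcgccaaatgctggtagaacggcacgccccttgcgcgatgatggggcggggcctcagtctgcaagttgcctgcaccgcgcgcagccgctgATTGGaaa

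CCAAT was found in 12 of the 30 promoters (40.0%), against 37.5% of 27025 promoters of the same length. It was in 8 of the 12 searched promoters of genes called lower at 7 d (66.7%), and in 4 of the 18 of the others (22.2%). This contrast was not tested. The split rests on the 1.2-fold limit, and 2 subunit genes were called once the trend with transcript length, described below, was taken out. Among core genes 7 of 14 held CCAAT, among regulatory genes 5 of 16. In Psma1 and Psma6 the pattern stood at 2 places, and in Psmd10, which encodes an assembly chaperone, at 3. TGACNNNGC was in 5 promoters (16.7%), against 11.5% of all. Its holders were Psmb5, Psmb6, Psmc6, Psmd12 and Psmd9, and those of Psmb5 and Psmb6, both catalytic subunits, and of Psmd9 lay within 50 bases of the start site. A match is a run of letters only, and binding was not measured.

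The level of the subunits came first. Most core genes lay close together: in saline at 2 h the alpha genes ran from 36.7 FPKM for Psma5 to 87.0 for Psma7. Beta genes reached 116 FPKM for Psmb1, a beta subunit without a protease site, and included the lowest of all, Psmb9 at 1.2. Regulatory genes ran from 7.75 FPKM for Psmd9, which helps to assemble the base, to 111 for Psmc5, an ATPase of the base. The median was 70.2 FPKM for the core and 45.4 for the regulatory particle, a ratio of 1.55, and over the 6 groups this ratio stayed between 1.55 and 1.73. It was at its highest in saline at 7 d.

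**Figure D1:**
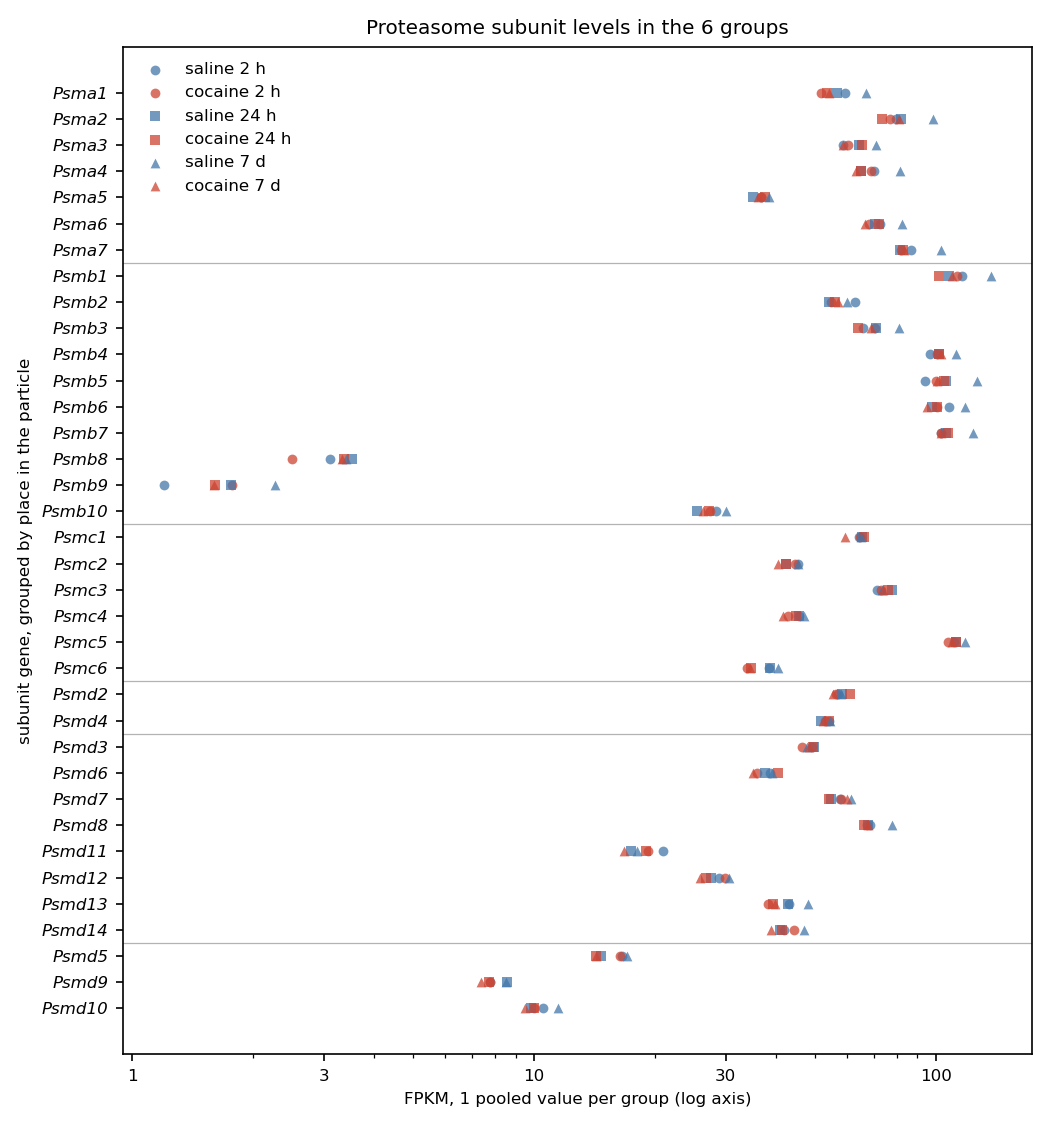
FPKM of each of the 36 subunit genes (rows, grouped by place in the particle) on a log axis, with 1 point per group, colour for treatment and shape for time. The points of a gene mostly lie close together, and the blue triangle of saline at 7 d is the rightmost in 26 rows.

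At 2 h and at 24 h the subunit genes differed little between cocaine and saline. At 2 h the median ratio was -0.03 on the log2 scale, against 0.02 for all 13262 genes, and 23 of the 36 were lower. Psmb8 was called lower (7.2% of all genes were) and Psmb9 was called higher (10.6% of all genes were), and no other subunit passed 1.2-fold. At 24 h the median was 0.00, with 18 genes lower and 18 higher, and 0 were called, where 5.54% of all genes were called lower and 6.12% higher. The largest 24 h ratios were -0.15 for the ATPase gene Psmc6 and 0.13 for the lid gene Psmd11.

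At 7 d the subunit genes were lower after cocaine. The median ratio was -0.22 (a change of -14.1%), while the median of all 13310 genes was -0.01. Of the 36 genes 34 were lower (94.4%, against 52.4% of all genes), and 14 were called lower against a background of 11.9%. None was called higher, where 8.16% of all genes were. The exceptions in direction were Psmc3, an ATPase, at 0.01, and Psmd3, a structural subunit of the lid, at 0.02, both within 0.05 of no change. These directions hold on the deposited scale: rescaled to equal sums over genes with a coding transcript, the subunit median was 0.37 and that of all genes 0.58. Rescaling shifts every gene alike, so the distance of the subunits, 0.21 below the median of all genes, could not change under it. With the trend of the ratio with transcript length taken out, as described below, the subunit median was -0.09 and 2 genes were called.

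**Figure D2:**
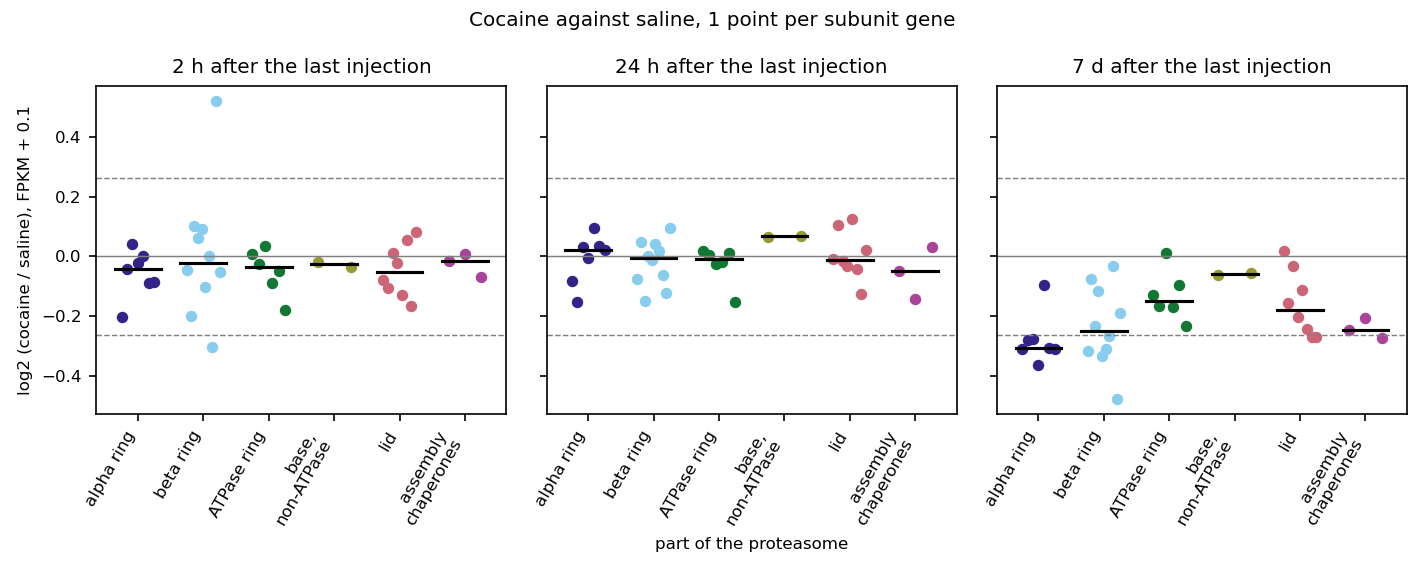
log2 ratio of cocaine over saline for each subunit gene (points) at 2 h, 24 h and 7 d, by part of the particle. Bars are medians and dashed lines the 1.2-fold limits; at 7 d the alpha ring points lie at or below the lower line except Psma5.

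The core particle was the lower of the 2 at 7 d. All 17 core genes were lower, with a median of -0.28 (a change of -17.7%), and 11 were called. The regulatory genes had a median of -0.17 and 3 of 19 were called, a share near the 11.9% of all genes. None of these 3 was called once the ratios were centred on the median of all genes. The difference between the medians was -0.11 on the log2 scale at 7 d, against -0.02 at 2 h and 0.01 at 24 h. With the trend of the ratio with transcript length taken out, as described with the length values, the 7 d difference was -0.01 and 2 core genes were called.

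The products of the alpha ring genes open or close the entrance of the barrel. Of 7 genes 6 were called lower at 7 d, where 11.9% of all genes were. These 6 lay between -0.36 and -0.28, and the other, Psma5, was at -0.09. Psma4 was the lowest of the ring: its level was 70.2 FPKM (saline) and 69.1 (cocaine) at 2 h, 65.3 and 65.0 at 24 h, then 81.4 and 63.2 at 7 d. Saline at 7 d therefore stood alone at the top, and the other 5 values lay between 63.2 and 70.2. Psma1 read 59.5 and 51.7 FPKM at 2 h, 56.7 and 53.6 at 24 h, then 67.2 and 54.1 at 7 d, with cocaine below saline each time (-0.20, -0.08 and -0.31). Psma7 went from 103 FPKM in saline to 83.2 in cocaine at 7 d, and its 4 earlier values ran from 81.6 to 87.0. In Psma2, Psma3 and Psma6 the 7 d saline value was likewise the highest, at 98.4, 71.1 and 82.6 FPKM, with 81.0, 58.6 and 66.7 in cocaine. The loci of Psma3 and Psma4 also hold another coding gene (Arid4a and AY074887). With the length trend taken out, Psma3 (-0.27) was the only alpha gene that still passed 1.2-fold.

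The beta ring carries the protease sites. In the constitutive particle these belong to Psmb5 (chymotrypsin-like), Psmb6 (caspase-like) and Psmb7 (trypsin-like). Psmb5 read 94.1 FPKM (saline) and 100 (cocaine) at 2 h, 106 and 105 at 24 h, then 127 and 101 at 7 d, a 7 d ratio of -0.33. Psmb6 read 108 and 101, 97.9 and 101, and 118 and 95.3 at the same times, with a 7 d ratio of -0.31. Psmb7 read 103 and 103, 106 and 107, and 124 and 103, with a 7 d ratio of -0.27, on a locus that also holds Nek6. All 3 had their highest level in saline at 7 d. Their summed level was 305 and 304 FPKM at 2 h, 310 and 313 at 24 h, then 369 and 299 at 7 d.

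Among the beta subunits without protease sites, Psmb1 was called lower at 7 d (137 FPKM in saline, 110 in cocaine, ratio -0.32). Psmb3 was at -0.23, Psmb4 at -0.11 and Psmb2 at -0.08, none of them called. Psmb2 was the one member of this set whose level was not highest in saline at 7 d: it read 63.1 FPKM in saline at 2 h and 60.1 in saline at 7 d.

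The immunoproteasome subunits replace the constitutive ones in immune cells and under interferon. Psmb8 read 3.11 and 2.50 FPKM at 2 h, 3.52 and 3.36 at 24 h, then 3.41 and 3.33 at 7 d, so its 2 h ratio of -0.30 came with the lowest of its 6 values in cocaine. Psmb9 read 1.2 and 1.77 FPKM at 2 h, 1.76 and 1.61 at 24 h, then 2.27 and 1.60 at 7 d, with ratios of 0.52, -0.12 and -0.48. Its 2 outlying values were both in saline, the lowest at 2 h and the highest at 7 d, and the cocaine values stayed between 1.60 and 1.77. Psmb8 and Psmb9 are neighbours on chromosome 17, and the loci of both also hold a peptide transporter gene (Tap2 and Tap1), whose reads could not be told apart from theirs where the genes overlap, since the library kit does not mark strand. Psmb10 was higher in level, from 25.5 to 30.1 FPKM, and at -0.19 at 7 d, on a locus that also holds Lcat and Slc12a4. As markers of microglia, the resident immune cells of the brain, 6 genes summed to 136 FPKM (saline) and 143 (cocaine) at 2 h, 141 and 128 at 24 h, then 138 and 139 at 7 d. Their part in the Psmb8 and Psmb9 values was not tested.

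The ATPases of the base thread substrates into the barrel. None of the 6 was called at any time, and at 7 d they ran from -0.23 for Psmc6 to 0.01 for Psmc3, with a median of -0.15. Psmc5, the highest regulatory gene, read 111 and 107 FPKM at 2 h, 112 and 112 at 24 h, then 118 and 110 at 7 d. Psmc3 read 71.4 and 73.2, 77.6 and 76.2, and 73.6 and 74.1, and its highest level was in saline at 24 h. Psmc6 was lower in cocaine at each time point, at -0.18, -0.15 and -0.23.

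The base subunits outside the ATPase ring scarcely differed: Psmd2, a scaffold, was at -0.06 and Psmd4, a ubiquitin receptor, at -0.06 at 7 d. Psmd1, the other scaffold of the base, falls outside the rule, as it was counted on 1 joint locus with Armc9 and Gm21972 (37.6 FPKM in saline and 36.7 in cocaine at 7 d).

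In the lid 2 of 8 genes were called lower at 7 d, where 11.9% of all genes were. Psmd14, the deubiquitinase of the lid, read 42.0 and 44.4 FPKM at 2 h, 40.9 and 41.5 at 24 h, then 47.1 and 39.0 at 7 d, a 7 d ratio of -0.27. Psmd13, a structural subunit, read 43.1 and 38.3, 42.9 and 39.3, and 48.2 and 39.9, and was lower in cocaine at all 3 times (-0.17, -0.13 and -0.27). Its locus also holds Bet1l, Ric8a and Sirt3. Psmd3 showed the opposite sign at 7 d, 47.8 FPKM in saline and 48.3 in cocaine. The lowest lid gene was Psmd11, at 18.0 and 16.7 FPKM at 7 d.

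Psmd5, Psmd9 and Psmd10 carry subunit names but encode chaperones that assemble the base and leave the finished particle. At 7 d they were at -0.25, -0.21 and -0.27, and Psmd10 was called, at 11.5 FPKM in saline and 9.49 in cocaine. Their levels, 17.0 FPKM or less in every group, were the lowest of the regulatory genes. Psmd9 read 7.75 and 7.79 at 2 h, 8.54 and 7.72 at 24 h, then 8.53 and 7.38 at 7 d. All 3 share their loci with other coding genes, 4 of them in the case of Psmd9.

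Set beside the groups of 2 h and 24 h, which were normalized separately, the core stood high in saline at 7 d. Saline at 7 d was the highest of the 6 groups for 26 of the 36 subunit genes, where it was the highest for 25.7% of all 12957 genes. It was the highest for 15 of 17 core genes and 11 of 19 regulatory genes. Cocaine at 7 d was the lowest of the 6 for 15 genes, against 17.3% of all genes, and 10 of these 15 were regulatory. As a common base for each gene, the median of its 4 levels at 2 h and 24 h was taken. Over this base, saline at 7 d had a median of 0.24 for the core (log2), 0.08 for the regulatory genes and -0.02 for all genes. Cocaine at 7 d had -0.02 for the core, -0.08 for the regulatory genes and -0.04 for all genes. By these medians core genes stood above their earlier levels in saline and close to them in cocaine, and regulatory genes stood on either side. With the length trend taken out, as given below, the core median in saline at 7 d was 0.07. Of the core genes, 11 of 17 had a 7 d cocaine level within the range of their 4 earlier values, 5 lay below it and 1 above. Of all 12957 genes, 56.4% lay within that range, so the core share (64.7%) was near that of all genes.

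**Figure D3:**
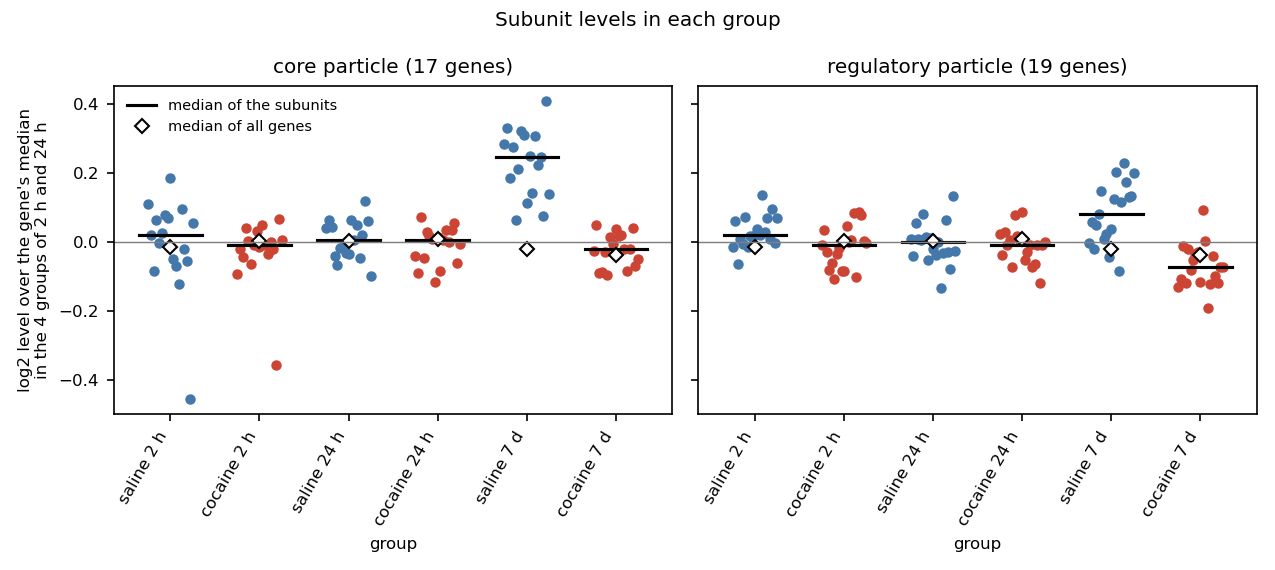
log2 level of each core (left) and regulatory (right) gene in each group over that gene's median in the 4 groups of 2 h and 24 h; bars are subunit medians and diamonds the median of all genes. The core points of saline at 7 d lie above 0 for all 17 genes, while those of cocaine at 7 d centre on -0.02.

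Transcript length moved with the 7 d ratio. Across genes with a coding transcript in the GENCODE vM1 annotation, which share the same libraries, Spearman's rho between the ratio and the length of the longest one was 0.48 at 7 d over 10938 genes. Of these genes, 10674 also passed the filter at 2 h, where rho was 0.157, and 10720 at 24 h, where it was 0.0878. Proteasome transcripts are short, with a median of 1476 nt (1165 nt for the core, 1785 nt for the regulatory genes) against 3052 nt for all genes. In the shortest of 20 equal length groups the median gene was at -0.23 and in the longest at 0.14. After the median of its length group was taken from each gene, the 7 d median was -0.09 for all subunits, -0.10 for the core and -0.09 for the regulatory genes, and 26 of 36 stayed below 0. Psmb9 (-0.36) and Psma3 (-0.27) still passed 1.2-fold, where 5.34% of all genes were called lower in this way. Psmb9 read only 2.27 and 1.60 FPKM at 7 d, on a locus that also holds Tap1. The longest coding transcript of Psma3 has 2846 nt, so little was taken from its ratio, and its locus also holds Arid4a. With the length groups taken out, the gap between core and regulatory particle was -0.01.

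A trend with length was also seen in each 7 d group set against the earlier levels. The level in saline at 7 d over the earlier base had a rho of -0.486 with length over 10811 genes, and that in cocaine at 7 d had -0.12. Over the 36 subunit genes the values were -0.476 and -0.313. With the length groups taken out, saline at 7 d was 0.07 above the base for the core and 0.02 for the regulatory genes, and cocaine at 7 d 0.00 and -0.05. Over the 36 subunit genes the rho of the 7 d ratio with length was 0.36, within the core 0.127 over 17 genes and within the regulatory particle 0.093 over 19. The part of length, or of whatever in these libraries goes with it, in the 7 d values was not tested further.

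**Figure D4:**
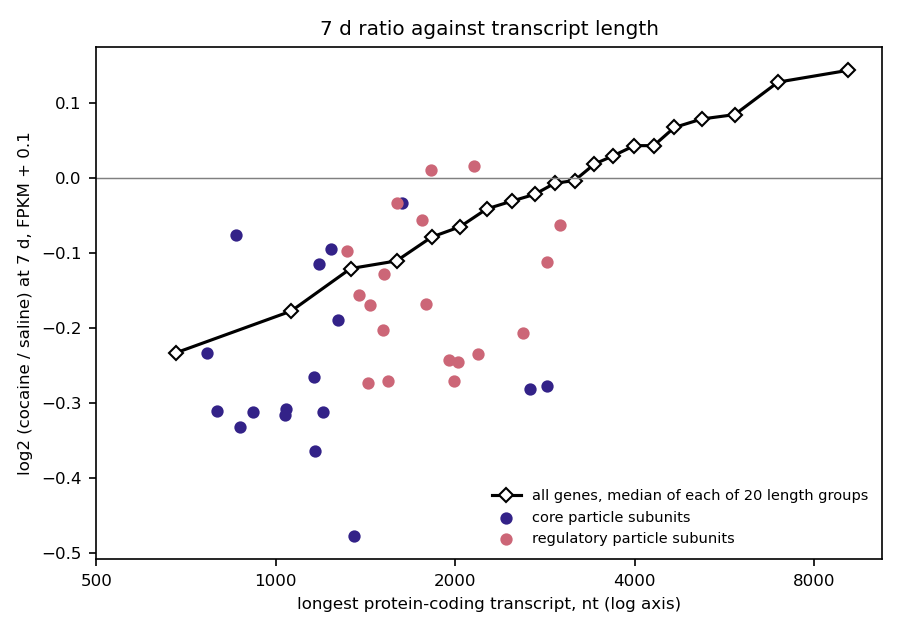
log2 ratio of cocaine over saline at 7 d (vertical axis) against the length of the longest coding transcript (log axis) for core and regulatory genes, with the median of all genes in 20 length groups as a line with diamonds. The line climbs from -0.23 to 0.14, and most core genes lie at its short end and below it.

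Genes that work with the proteasome were taken from lists of symbols. Among 4 activators of the core and the inhibitor Psmf1, the median at 7 d was -0.10. Psme2, a subunit of the PA28 activator that opens the barrel, was called lower at 7 d (22.7 FPKM in saline, 18.7 in cocaine, -0.27), and its partner Psme1 was at -0.14. Psme3 was at -0.04. Psme4, the PA200 activator, was called lower at 2 h (7.49 and 5.76 FPKM, -0.37) and was at 0.08 at 7 d.

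Chaperones that build the core were 4 measured genes, all lower at 7 d, with a median of -0.18. Psmg2, which helps the alpha ring to form, was called lower (16.7 and 12.7 FPKM, -0.39). Pomp, the maturation factor of the beta rings, read 168 FPKM in saline and 143 in cocaine (-0.23), after 145 and 143 at 2 h and 132 and 128 at 24 h. Psmg4 was called lower at 24 h (-0.28) and was at -0.09 at 7 d.

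Adrm1, a ubiquitin receptor seated in the base, was at 0.04, 0.06 and 0.05 at 2 h, 24 h and 7 d. Nfe2l1, the gene of Nrf1, read 79.4 and 86.0 FPKM at 2 h, 83.9 and 83.9 at 24 h, then 73.6 and 79.5 at 7 d, so that at 7 d it differed in sign from the subunit genes (0.11). Nfe2l2, the gene of the related Nrf2, was called higher at 2 h (6.61 and 8.21 FPKM, 0.31) and was at 0.04 at 7 d. Of the ubiquitin and E1 genes, Rps27a, which makes ubiquitin fused to a ribosomal protein, was called lower at 7 d (267 and 206 FPKM, -0.37). Uba6, an alternative E1 enzyme, was called higher at 2 h (0.45) and 24 h (0.29), at a level of 3.24 FPKM or less.

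Other large complexes give the scale. For the 78 cytosolic ribosomal protein genes the 7 d median was -0.24, with 33 called lower and 76 lower in all, and saline at 7 d was the highest group for 68. For the 8 genes of the TRiC chaperonin, which folds actin and tubulin, the median was -0.09 with 0 called, and saline at 7 d was highest for 6. For Cct6a the calls at 2 h (0.43) and 24 h (-0.43) had opposite signs. For the 29 measured E2 enzymes, which hand ubiquitin to its ligases, the median was -0.11 with 3 called lower, and saline at 7 d was highest for 11. Over all genes these shares were 11.9% called lower and 25.7% with saline at 7 d highest, so the E2 calls were near the background. The core median of -0.28 thus lay beside that of the ribosome, and the regulatory median of -0.17 between those of the ribosome and the E2 enzymes. These medians share the same libraries and were not tested against each other. They are not corrected for transcript length. With the length trend taken out the core was at -0.10 and the regulatory particle at -0.09, and no such value is given for the other lists.

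The cell type markers showed the labelled tissue. Slc17a7, the vesicular glutamate transporter of cortical neurons, read 466 to 532 FPKM, and Drd2, a defining gene of striatal neurons, did not reach status OK. At 7 d the summed level of 5 excitatory neuron markers was 552 FPKM in saline and 564 in cocaine, most of it from Slc17a7 (466 and 483). Neurod6 was called lower (-0.41) and Cux2 higher (0.30). The 5 astrocyte markers summed to 313 and 351, with 2 of the 5 called higher. Red cell genes summed to 323 and 504 FPKM at 2 h and 452 and 529 at 7 d. Of 5 choroid plexus markers only Ttr and Kcnj13 passed the filter. Ttr read 1.9 and 0.461 FPKM at 2 h and 0.284 and 6.54 at 7 d, and Kcnj13 read 2.04 and 2.16 at 7 d, while Aqp1 did not reach status OK and Folr1 read 0.668 and 0.29 at 7 d. The 5 interneuron markers summed to 452 and 414 FPKM at 7 d with 0 called, and the 5 oligodendrocyte markers to 732 and 721 with 0 called. All 4 endothelial markers were higher in cocaine at 7 d, 1 of them called, with sums of 76.6 and 85.6. Of all genes at 7 d, 8.16% were called higher and 11.9% called lower, and 52.4% were lower in cocaine by any amount. The part of the marked cell types in the proteasome values was not tested.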

How the data were processed

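Polyadenylated RNA of 12 libraries was sequenced as paired ends. The sources differ on the read length and the trimming tool. Per the labels, the processing used CASAVA 1.8.2, Trimmomatic 0.32, TopHat2 2.0.12, Cufflinks 2.2.1 and Cuffdiff on GRCm38; the methods name mm9, and the positions in the tables matched RefSeq genes on GRCm38 for 99.7% to 99.9% of named genes. For each time point the authors deposited 1 table of loci with 2 FPKM values, saline and cocaine, each 1 value for both libraries together. The tables also give the authors' own comparison (fold changes, test scores and significance), which was not used. Column headers do not spell out saline and cocaine; the first value column was read as saline, as in the study's supplementary tables. A gene on several loci took its longest locus, with a mean of at least 1 FPKM. Positions are 1-based. Values were computed with Python 3.11.15, pandas 2.3.3 and numpy 2.4.6. The call rule and the length correction were checked with changes planted in the 24 h values.

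With 1 pooled value per group no test, SD or interval was possible. Depth per sample is unknown from the tables. Subunits and lists were chosen with earlier results of these data known. Named were all subunits, and in depth those called at any time, the catalytic ones, the extremes of each class and those against their class at 7 d; from the other lists, called genes and Nfe2l1, Pomp, Adrm1 and Psme1 to Psme4. Alternatives were another pseudocount, filter, locus choice, fold limit and scaling, a length correction and reduced gene sets. One list of genes that work with the proteasome is not reported here.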

Additional observations from a re-analysis of the deposited data

Results flagged for a closer look

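Psmb9 was higher in cocaine at 2 h (0.52 on the log2 scale) and lower at 7 d (-0.48). The ratios differed by 0.997, and this difference was not tested, since each group has 1 pooled value. The levels were between 1.2 and 2.27 FPKM, and the locus also holds Tap1.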

How the results depend on the processing

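No paired analysis was possible because each group has 1 pooled value, and for the same reason no library could be left out. Loci under 300 bases held 99.6% to 99.99% of each FPKM column sum, so sums over columns rest on them. Rescaling each column to an equal sum over all loci moved the subunit median to 0.80, 0.37 and -1.74 at 2 h, 24 h and 7 d, with 36, 30 and 36 genes called. Sums over named genes or over genes with a coding transcript, both added after seeing the data, gave -1.32, -3.41 and -0.074 (36, 36 and 1 called) and 0.39, -0.81 and 0.37 (31, 36 and 33 called), and in the latter sum 10 genes held 90.1% at 7 d. Such scaling shifts every gene alike: the median of all genes went to -1.53, 0.14 and 0.58 at 7 d under the 3 sums, and the subunits stayed 0.21 below it under each. Signs turned with these sums: Psmb8 at 2 h to 0.52 (all loci) and 0.11 (coding), Psmb9 at 2 h to -0.73 (named), and at 7 d (coding) Psma1 0.28, Psma2 0.31, Psma3 0.31, Psma4 0.23, Psma6 0.28, Psma7 0.28, Psmb1 0.27, Psmb5 0.26, Psmb6 0.28, Psmb7 0.32, Psmb9 0.087, Psmd10 0.31, Psmd13 0.32 and Psmd14 0.32. Taking out length left 2 called at 7 d, a median of -0.090 and a core less regulatory gap of -0.010. A limit of 1.1-fold called 6, 4 and 24 genes, and 1.5-fold 0 at 2 h and 0 at 7 d. The share of all genes called at these 2 limits, or under the sums above, is not given, so these counts have no background. At 2 h a pseudocount of 1 called 1, and leaving out the immunoproteasome genes 0. Without the 11 genes whose locus holds another coding gene (added after seeing the data), 0 were called at 2 h and 8 of 25 at 7 d. Of all genes 11.9% were called lower at 7 d. The 7 d median of these 25 was -0.17 and the gap -0.17. Centring on the median of all genes, dropping the filter and taking the locus of highest FPKM kept every call count within 1.5 times.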

Other observations

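Psmb5-ps, a processed pseudogene of Psmb5 on chromosome 11, read 32.8 FPKM (saline) and 0.0257 (cocaine) at 24 h, while at 2 h and 7 d its 4 values were 0.0157 or less. Psmb5 itself read 106 and 105 FPKM at 24 h. Reads of a processed pseudogene and of its parent can be near identical, so these values are uncertain.

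The testis subunit Psma8 and the thymus subunit Psmb11 did not reach status OK at any time and read 0.267 FPKM or less. Psma5 and Psmd4 each had a second locus at 24 h, at 1.45 FPKM or less. Psma2 had a second entry over the same positions at 7 d, without status OK, at 0.0673 FPKM in saline and 0.301 in cocaine.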
